A study of Rattus norvegicus with 28 samples.

Results

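The integrated stress response is the pathway by which cells slow protein synthesis under stress and switch on a repair programme. It was followed here through 10 genes that were chosen by symbol, all of which were found among the 39538 genes of the deposited table. Kinases that sense misfolded protein or missing amino acids phosphorylate the initiation factor eIF2, general translation falls, and the mRNA of the transcription factor Atf4 is translated better. ATF4 then raises its target genes, among them Ddit3, Trib3, Chac1 and Asns, while a phosphatase carrying Ppp1r15a or Ppp1r15b as its regulatory subunit removes the phosphate again. Much of this control acts on protein, so mRNA levels show only the transcriptional side of it. TorsinA, the protein altered in DYT-TOR1A dystonia, resides in the lumen of the endoplasmic reticulum and nuclear envelope, the compartment whose protein load the kinase Eif2ak3 monitors.

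Striatal RNA of male rats was sequenced in 28 libraries. The wt naive group (8 libraries) had neither transgene nor injury, and the wt crush group (6 libraries) had a right sciatic nerve crush of 30 seconds. The TG naive group (8 libraries) and the TG crush group (6 libraries) carried the genotype {delta}ETorA, without and with the same crush. The label for time is 12 weeks post injury in every library, naive ones included. The sources used here do not give age, strain, the promoter of the transgene or the sequencing run of each library. Nothing in the labels says that libraries came from separate animals, so each p-value reflects only how far these libraries scatter, part of which may be technical.

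The libraries held 29151455 to 38407359 reads assigned to genes. The human TOR1A transcript stood at 102 to 144 RPM (reads per 1000000 assigned reads) in the TG libraries and at 0 to 0.972 RPM in the wt ones. All 14 markers of the spiny projection neurons that make up most of the striatum were present in every library, Ppp1r1b at 1300 to 3037 RPM and Drd1 at 135 to 379 RPM. The cortical gene Slc17a7 exceeded 20 RPM in 5 libraries (wt naive replicates 197, 199 and 202, TG naive replicate 190 and TG crush replicate 220), and the calls of the members, the named list genes and the correlations that passed were repeated without them. In bulk tissue, fewer cells of a type and less RNA per cell cannot be told apart.

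In short, none of the 9 genes tested differed between TG and wt striatum by the test used. Averaged over genotypes, Atf5 and Ddit3 were lower after nerve crush and Ppp1r15b was higher, 3 of 9 genes beside 11.4% of all genes. The calls of Ddit3 and Ppp1r15b were lost in 17 and 15 of 28 fits with 1 library left out. Both were also lost without the libraries high in Slc17a7. All changes were small. Of the 10 genes, 9 passed the filter on low values (at least 0.5 RPM in at least 6 libraries). Trib3 did not. The limma test covered 18222 genes on the scale of log2(RPM + 0.5), with p adjusted by the Benjamini-Hochberg method over all of them, and a gene is said to pass, rise or fall at an adjusted p under 0.05. RPM is not corrected for transcript length, so levels are compared between groups and not between genes.

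**Figure D1:**
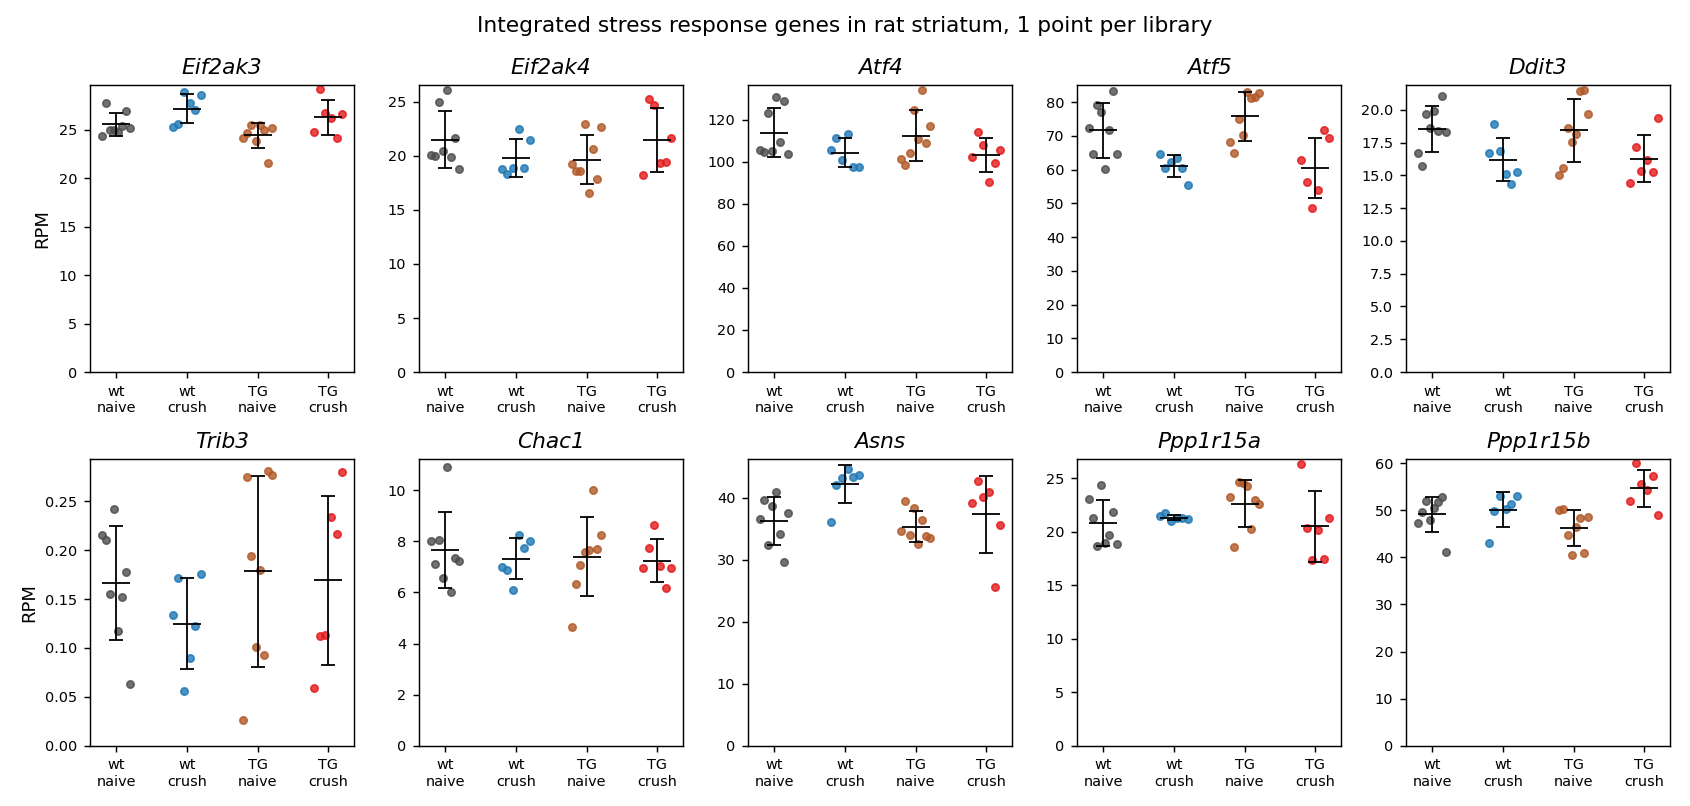
RPM of each of the 10 genes (vertical axis, from 0) in the 4 groups (horizontal axis), with 1 point per library and the mean ± SD in black. The groups overlap for every gene in each of the 4 comparisons of single groups, and the TG crush libraries of Ppp1r15b sit between 48.9 and 59.9 RPM against 40.4 to 50.2 in TG naive.

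Eif2ak3 (PERK, the kinase that senses misfolded protein in the endoplasmic reticulum; chromosome 4, 98648513 to 98709695, Rnor_6.0) ran from 24.3 to 27.7 RPM in wt naive (median 25.1) and from 25.2 to 28.9 in wt crush (median 27.4). In TG naive libraries it ran from 21.6 to 25.5 RPM (median 24.8) and in TG crush from 24.1 to 29.2 (median 26.4). It was the steadiest of the 10 genes, with a coefficient of variation of 6.59% over the 28 libraries. All 6 wt crush libraries lay above the wt naive median, and 4 of 6 TG crush libraries lay above the highest TG naive library. The log2 change after crush, averaged over both genotypes, was 0.10 (SE 0.03, limma adjusted p = 0.0599), which misses the threshold. It passed without wt naive replicate 196 (adjusted p = 0.0353), without wt crush replicate 203 (0.0407) or without TG crush replicate 223 (0.0234). The other 25 of 28 fits with 1 library left out did not pass (adjusted p up to 0.109). Of 8 other alternatives, only median-of-ratios rescaling of the libraries passed (log2 change 0.12, adjusted p = 0.0192). Adjusted p in the rest reached 0.248.

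Eif2ak4 (GCN2, the kinase that senses uncharged tRNA; chromosome 3, 110159624 to 110245382, Rnor_6.0) ran from 18.8 to 26.1 RPM in wt naive and from 18.3 to 22.5 in wt crush libraries. Among TG libraries it ran from 16.6 to 22.9 RPM without injury and from 18.2 to 25.3 after crush. Its log2 change after crush was -0.11 (SE 0.09) in wt and 0.12 (SE 0.09) in TG rats, and the difference between these effects was 0.23 (SE 0.12, limma adjusted p = 0.663). None of these passed.

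Atf4, the transcription factor at the centre of the response (chromosome 7, 121480723 to 121482781, Rnor_6.0), ran from 103 to 131 RPM in wt naive (median 108) and from 97.3 to 113 in wt crush (median 103). In TG naive it ran from 98.5 to 134 RPM (median 110), and in TG crush from 90.4 to 114 (median 104). The groups overlapped broadly, and 5 of 6 TG crush libraries lay below the TG naive median. The averaged log2 change after crush was -0.12 (SE 0.05, limma adjusted p = 0.104). It did not pass, with adjusted p from 0.0930 to 0.313 over its alternatives that left out no single library.

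Atf5, a transcription factor of the same family whose translation is also controlled by eIF2 (chromosome 1, 100807821 to 100812410, minus strand, Rnor_6.0), was the gene of the 10 with the lowest p after crush. It ran from 60.1 to 83.4 RPM in wt naive (median 72.0) and from 55.5 to 64.7 in wt crush (median 61.5). In TG naive libraries it ran from 65.0 to 82.9 RPM (median 78.1), and in TG crush from 48.7 to 71.7 (median 59.7). Every crush library of either genotype lay below the naive median of its genotype, and 4 of 6 TG crush libraries lay below the lowest TG naive library, although the groups overlapped. Mean levels in TG rats were 75.9 ± 7.25 RPM without injury (SD, n = 8) and 60.5 ± 9.02 RPM after crush (SD, n = 6). In TG rats Atf5 fell by 0.33 on the log2 scale (SE 0.08, limma adjusted p = 0.0228). In wt rats the log2 change was -0.22 (SE 0.08, limma adjusted p = 0.157), and the difference between the 2 effects was -0.11 (SE 0.11, limma adjusted p = 0.818), so the effects were not shown to differ. Averaged over both genotypes Atf5 fell by 0.28 (SE 0.06, limma adjusted p = 0.00387). That averaged call held in all 28 fits with 1 library left out (adjusted p up to 0.0103) and in the 9 other alternatives (up to 0.0107). The call in TG rats was lost without the 5 libraries high in Slc17a7 (log2 change -0.29, adjusted p = 0.0736), with the TG groups fitted alone (adjusted p = 0.0897), and without any 1 of TG naive replicates 191 and 193 and TG crush replicates 220 and 222 (adjusted p up to 0.0885). Atf5 overlaps Nup62 and Il4i1 on the opposite strand, which averaged 0.147 and 0.638 RPM, and whether strand was used in counting is not stated in the sources used here.

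Ddit3 (CHOP, a transcription factor of prolonged stress; chromosome 7, 70578564 to 70585074, Rnor_6.0) ran from 15.7 to 21.0 RPM in wt naive (median 18.5) and from 14.3 to 18.9 in wt crush (median 15.98). The TG naive range was 15.0 to 21.5 RPM (median 18.4), and that of TG crush 14.4 to 19.4 (median 15.7). In each genotype 5 of 6 crush libraries lay below the naive median. The log2 change was -0.19 (SE 0.08) in wt and -0.17 (SE 0.08) in TG rats, neither of which passed alone (limma adjusted p = 0.197 and 0.249). Averaged over both, Ddit3 fell by 0.18 (SE 0.06, limma adjusted p = 0.0422). This call lay close to the threshold. It was lost in 17 of 28 fits that left out 1 library (adjusted p up to 0.0803), with no filter (0.0676), after median-of-ratios rescaling (0.0532), without the libraries high in Slc17a7 (log2 change -0.16, adjusted p = 0.184) and with the level of spiny neuron markers in the model (log2 change -0.14, adjusted p = 0.122). The libraries whose loss ended the call were wt naive replicates 197, 198, 199, 200 and 201, wt crush replicates 206, 207, 209 and 210, TG naive replicates 189, 191, 192, 193 and 194, and TG crush replicates 214, 220 and 222. Ddit3 shares 1583 bases with Mbd6 on the opposite strand, so these 2 genes are uncertain if strand was not used. Mbd6 had an averaged log2 change of -0.08 (SE 0.05, limma adjusted p = 0.289).

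The 250 bases before the start of Ddit3 are shown because the gene fell after crush. They and the other sequences below are from RefSeq (GRCr8), written 5′ to 3′ on the strand of the gene, and capitals mark any match to 1 of 2 motifs searched on both strands: the C/EBP-ATF response element with the letters TGATGNAA, to which ATF4 binds, and the cAMP response element TGACGTCA. The search covered 250 bases before to 50 after each start. No capitals appear in the Ddit3 stretch (chr7:65001445-65001694, plus strand), which says only that these letters are not in that window.
Ddit3: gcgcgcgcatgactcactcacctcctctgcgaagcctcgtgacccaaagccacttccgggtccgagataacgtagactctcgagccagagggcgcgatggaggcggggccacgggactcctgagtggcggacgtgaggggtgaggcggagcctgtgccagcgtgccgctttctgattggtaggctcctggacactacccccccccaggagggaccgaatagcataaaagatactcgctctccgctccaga

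Trib3, a pseudokinase that restrains ATF4 and CHOP (chromosome 3, 147814056 to 147819650, minus strand, Rnor_6.0), was nearly silent. It had between 1 and 10 reads in every library, 0.0260 to 0.281 RPM. The summed reads gave 0.168 RPM in wt naive (45 reads, 95% exact Poisson interval 0.123 to 0.225) and 0.125 in wt crush (26 reads, 0.0815 to 0.183). They gave 0.177 RPM in TG naive (48 reads, 0.131 to 0.235) and 0.169 in TG crush (35 reads, 0.118 to 0.235). These intervals cover counting error only, and all 4 overlap, so no difference was detectable at this depth.

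Chac1, an enzyme that degrades glutathione (chromosome 3, 111160205 to 111163425, Rnor_6.0), ran from 6.01 to 10.9 RPM in wt naive (median 7.28) and from 6.10 to 8.26 in wt crush (median 7.36). In TG naive it ran from 4.66 to 10.02 RPM (median 7.63), and in TG crush from 6.17 to 8.62 (median 7.003). After crush its averaged log2 change was -0.03 (95% interval -0.20 to 0.14, limma adjusted p = 0.846).

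Asns, the enzyme that makes asparagine (chromosome 4, 33742876 to 33761106, minus strand, Rnor_6.0), went the other way from Atf5 and Ddit3. It ran from 29.6 to 40.9 RPM in wt naive (median 37.0) and from 36.1 to 44.7 in wt crush (median 43.3), and 5 of 6 wt crush libraries lay above the highest wt naive one. In TG naive it ran from 32.5 to 39.5 RPM (median 34.4), and in TG crush from 25.6 to 42.8 (median 39.6). The lowest value of all 28 libraries was that of TG crush replicate 223, which also had the largest mitochondrial share of reads at 18.5%, against 10.4% to 15.9% in the others. The averaged log2 change after crush was 0.14 (SE 0.06, limma adjusted p = 0.120) and did not pass. None of the 9 alternatives that left out no single library passed (adjusted p from 0.0612 to 0.313). Without TG crush replicate 223 the averaged change was 0.19 (adjusted p = 0.00611), the only 1 of 28 fits with 1 library left out that passed. The log2 difference between TG crush and wt crush went from -0.19 to -0.09 without that library, and did not pass in either case (limma adjusted p = 0.618 and 0.994).

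Ppp1r15a (GADD34, the phosphatase subunit induced by stress; chromosome 1, 101511899 to 101515043, minus strand, Rnor_6.0) ran from 18.6 to 24.3 RPM in wt naive (median 20.5) and from 21.0 to 21.8 in wt crush (median 21.3), so that the 6 wt crush libraries lay close together. In TG naive it ran from 18.6 to 24.6 RPM (median 23.1), and in TG crush from 17.3 to 26.4 (median 20.3). Its averaged log2 change after crush was -0.05 (95% interval -0.17 to 0.06, limma adjusted p = 0.534).

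Ppp1r15b (CReP, the phosphatase subunit made without stress; chromosome 13, 49933155 to 49940961, Rnor_6.0) ran from 41.2 to 52.8 RPM in wt naive (median 50.04) and from 43.0 to 53.1 in wt crush (median 50.7). In TG naive it ran from 40.4 to 50.2 RPM (median 47.4), and in TG crush from 48.9 to 59.9 (median 54.9). The wt groups covered the same range, while 5 of 6 TG crush libraries lay above the highest TG naive library. Mean levels in TG rats were 46.2 ± 3.85 RPM without injury (SD, n = 8) and 54.6 ± 3.89 RPM after crush (SD, n = 6). In TG rats Ppp1r15b rose by 0.24 on the log2 scale (SE 0.06, limma adjusted p = 0.0296), and in wt rats the log2 change was 0.03 (SE 0.06, limma adjusted p = 0.808). The difference between these effects was 0.21 (SE 0.09, limma adjusted p = 0.612) and did not pass, so a response particular to TG rats was not shown. Averaged over both genotypes it rose by 0.14 (SE 0.04, limma adjusted p = 0.0418).

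The calls of Ppp1r15b depended on which libraries were used. In TG rats the call was lost without the 5 libraries high in Slc17a7 (log2 change 0.21, adjusted p = 0.101), with the TG groups fitted alone (adjusted p = 0.0852), and without any 1 of TG naive replicates 189, 190 and 193 and TG crush replicates 219, 220 and 222 (adjusted p up to 0.0706). The averaged call was lost with no filter (adjusted p = 0.0634), without the libraries high in Slc17a7 (log2 change 0.11, adjusted p = 0.159) and in 15 of 28 fits with 1 library left out (adjusted p up to 0.0772). The libraries whose loss ended the averaged call were wt naive replicates 195, 198 and 202, wt crush replicates 205, 206, 207, 209 and 210, TG naive replicates 189, 190, 191 and 193, and TG crush replicates 219, 220 and 222. The log2 change kept its sign in all of these fits.

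The stretch before the start of Ppp1r15b, a gene that rose, is shown because it holds a match to the C/EBP-ATF response element, 178 bases before the start. Matches in the classical targets Chac1 and Trib3, and the cAMP response element of Ppp1r15a, are shown beside it with 20 bases on each side, up to the start of the gene. They are at chr13:47129750-47129999 (Ppp1r15b, plus strand), chr3:126795944-126795991 (Chac1, plus strand), chr3:161275534-161275574 (Trib3, minus strand) and chr1:105139635-105139682 (Ppp1r15a, minus strand) in GRCr8.
Ppp1r15b: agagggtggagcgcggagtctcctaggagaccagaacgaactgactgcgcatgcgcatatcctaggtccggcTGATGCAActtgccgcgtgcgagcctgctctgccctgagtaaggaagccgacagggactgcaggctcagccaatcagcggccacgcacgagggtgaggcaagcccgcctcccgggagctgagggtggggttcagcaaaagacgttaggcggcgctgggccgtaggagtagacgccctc
Chac1: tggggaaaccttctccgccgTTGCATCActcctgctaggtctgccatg
Trib3: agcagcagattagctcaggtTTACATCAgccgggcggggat
Ppp1r15a: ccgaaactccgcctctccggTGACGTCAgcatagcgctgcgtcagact

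Of the 10 genes, 3 hold TGATGNAA on either strand of this window, against 3.82% of 27457 rat promoters of the same length. The palindrome TGACGTCA was found in 1 of the 10 and in 1.91% of all. Of the 3 genes with a C/EBP-ATF match, Ppp1r15b rose after crush, Chac1 had a log2 change of -0.03 and Trib3 was at the detection limit. Atf5 and Ddit3, which fell, hold neither motif in this window. The Atf5 window was not shown to be a promoter, so its missing letters are no comparison with the other genes. The window was set by the annotated start of each gene, and whether striatum uses that start was not tested. The missing letters therefore say nothing about promoters that lie outside it. A match is a description of letters and was not tested as a binding site.

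**Figure D2:**
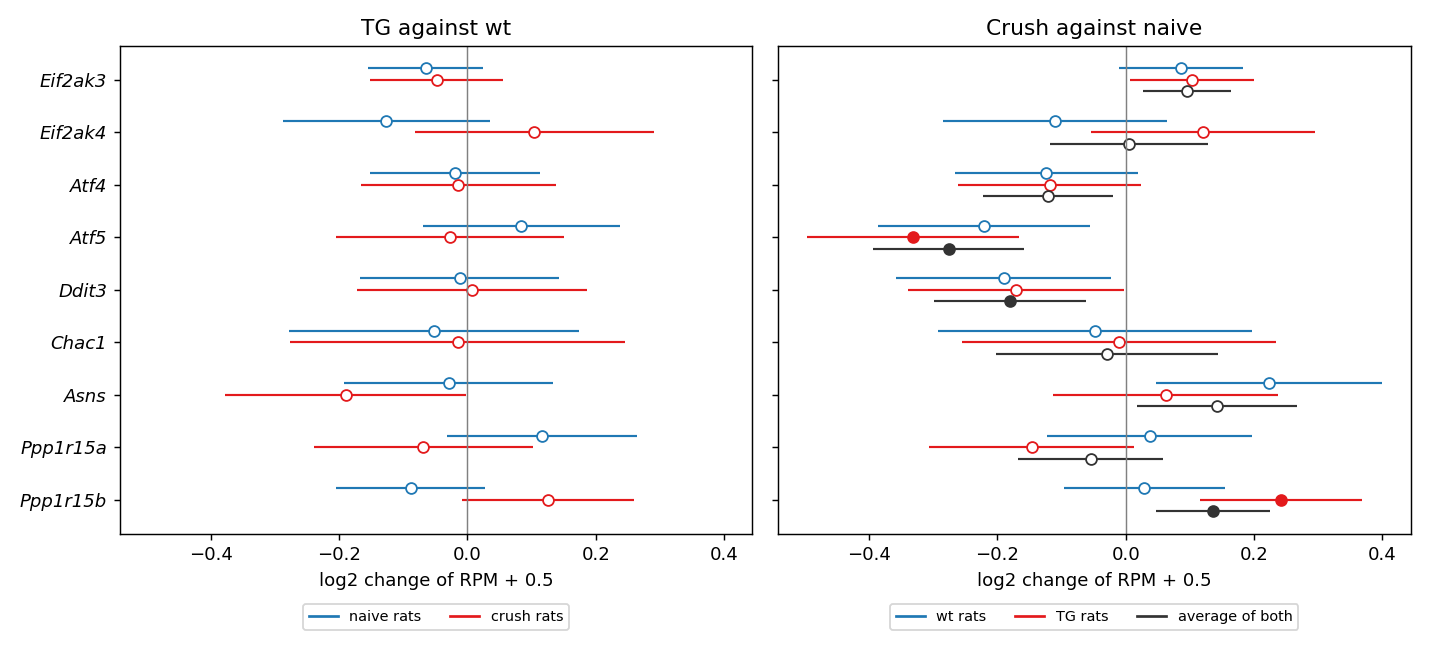
Log2 changes (horizontal axis, on the scale of RPM + 0.5) of the 9 genes tested, with bars for 95% intervals of the limma fit; filled points passed at an adjusted p under 0.05. Every point of the genotype comparison is open, and the filled points of the injury comparison are Atf5 and Ppp1r15b in TG rats and Atf5, Ddit3 and Ppp1r15b for the average of both genotypes.

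The comparison of TG with wt striatum asks whether the mutant torsinA goes with a different stress response. In naive rats 0 of the 9 genes tested passed limma's test, where 6 of all 18222 genes did (0.0329%, of which 0.0165% were higher and 0.0165% lower), and 0 of the 9 had an unadjusted p under 0.05, where 4.98% of all genes did. In crush rats 0 of 9 passed (0.00549% of all genes), and 1 of 9, Asns, had an unadjusted p under 0.05 (8.06% of all genes). Averaged over both arms 0 of 9 passed (0.0384% of all genes, 0.022% higher and 0.0165% lower), with 0 at an unadjusted p under 0.05 (5.09% of all genes). In limma-voom on whole reads the counts of members that passed were also 0 in these 3 comparisons. The median log2 change of the 9 genes was -0.03 in naive and -0.01 in crush rats, and that of all genes was -0.01 and 0. In the average over arms the 95% intervals of Atf4 (-0.12 to 0.08), Atf5 (-0.09 to 0.15), Ddit3 (-0.12 to 0.12), Eif2ak3 (-0.12 to 0.01) and Ppp1r15b (-0.07 to 0.11) all lay within 0.15 of 0 on the log2 scale. Those of Asns (-0.23 to 0.02) and Chac1 (-0.21 to 0.14) were wider. An average over arms can hide changes of opposite sign. The log2 change of Ppp1r15b was -0.09 in naive rats (95% interval -0.20 to 0.03) and 0.13 in crush rats (-0.01 to 0.26). Those of Eif2ak4 (-0.13 and 0.10), Ppp1r15a (0.12 and -0.07), Atf5 (0.08 and -0.03) and Ddit3 (-0.01 and 0.01) also differed in sign. Asns, Atf4, Chac1 and Eif2ak3 were below 0 in both arms.

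After crush, 0 of the 9 genes passed in wt rats, where 29 of all genes did (0.159%, of which 0.0384% were higher and 0.121% lower), and 3 of 9 (Atf5, Asns and Ddit3) had an unadjusted p under 0.05 beside 20.8% of all genes. In limma-voom the count in wt rats was also 0. In TG rats 2 of 9 passed, beside 3.08% of all genes: 1 higher (1.08% of all genes) and 1 lower (2.0% of all genes). An unadjusted p under 0.05 was found for 4 of 9, beside 19.3% of all genes. Averaged over both genotypes 3 of 9 passed, beside 11.4% of all genes: 1 higher (3.03% of all genes) and 2 lower (8.42% of all genes). An unadjusted p under 0.05 was found for 6 of 9, beside 28.5% of all genes. For all genes the averaged calls were 552 higher and 1534 lower, but 1022 higher and 1141 lower after median-of-ratios rescaling. In TG rats they were 197 higher and 365 lower, but 273 higher and 307 lower after rescaling. Under that rescaling Atf5 and Ppp1r15b kept their averaged calls, that of Ddit3 was lost and that of Eif2ak3 appeared. No member passed the test of the interaction (0 of 9, beside 0.00549% of all genes), and 1, Ppp1r15b, had an unadjusted p under 0.05 (7.49% of all genes). In limma-voom the count for the interaction was 0 as well. The comparisons within each arm and genotype share libraries with one another and with the averages.

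Some markers of other cell types passed after injury too, in an average over genotypes where 3.03% of all genes were higher and 8.42% lower. Of 8 astrocyte markers, Gjb6, Aldoc and Aldh1l1 fell in the average over genotypes, and the summed level of the 8 was 3956 to 5581 RPM in wt naive, 4005 to 4208 in wt crush, 4423 to 5202 in TG naive and 3908 to 5359 in TG crush libraries. Of 8 microglial markers, C1qb, Tyrobp, C1qa and Tmem119 fell, with sums of 318 to 485 RPM in wt naive, 337 to 394 in wt crush, 343 to 475 in TG naive and 317 to 483 in TG crush. Of 7 markers of endothelium and pericytes, Pecam1 and Flt1 fell, with sums of 363 to 473 RPM in wt naive, 342 to 429 in wt crush, 387 to 477 in TG naive and 334 to 490 in TG crush. None of the 14 spiny neuron markers passed limma's test. Yet they moved together in wt rats, where all 14 had a log2 change above 0 after crush (median 0.42, and -0.03 for all genes). There 12 of the 14 had an unadjusted p under 0.05. Of all genes in wt rats, 41.2% were above 0 and 20.8% had an unadjusted p under 0.05. In TG rats 6 of 14 markers were above 0 (median -0.01, 0 at an unadjusted p under 0.05), and on average 13 of 14 (median 0.19). For the interaction 14 of 14 were below 0 (median -0.37, 1 at an unadjusted p under 0.05). Of all genes, 46.3% were above 0 in TG rats and 42.8% on average, and 46.4% were below 0 for the interaction. The sums of the 14 spiny neuron markers were 5467 to 11037 RPM in wt naive, 9709 to 11098 in wt crush, 5926 to 9937 in TG naive and 5537 to 11030 in TG crush. No marker of these 4 lists was at 0 in all libraries of a group. Of 4 pituitary markers, Gh1 and Prl rose, with sums of 2.11 to 5.28 RPM in wt naive, 2.82 to 181 in wt crush, 1.72 to 38.9 in TG naive and 2.74 to 77.2 in TG crush. None of 7 oligodendrocyte, 5 cortical excitatory neuron and 5 choroid plexus markers passed limma's test in any comparison. When the level of spiny neuron markers was put in the model, the averaged change of Atf5 was -0.25 (adjusted p = 0.0107) and that of Ppp1r15b 0.15 (adjusted p = 0.0481), and both still passed. Without the 5 libraries high in Slc17a7, the averaged calls of Gjb6 (adjusted p = 0.0251), C1qb (0.0418), Pecam1 (0.0208), Gh1 (0.0218) and Prl (0.0461) held, and those of the other 6 markers named here were lost (adjusted p from 0.0720 to 0.193). The part of the other cell types in these results was not tested.

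Within groups, the genes fell into pairs that did and did not vary together. For each library the deviation of log2(RPM + 0.5) from its group mean was taken, and all 36 pairs of the 9 genes were compared over 28 libraries, with permutation within groups. Atf5 and Asns were opposed, with a Pearson r of -0.72 (permutation p = 3e-05, adjusted p = 0.00108) and a Spearman rho of -0.74 (permutation p = 7e-05, adjusted p = 0.00252). Without the 2 libraries farthest from the median of Atf5, r was -0.71. Within single groups, as a description, r was -0.82 in wt naive, -0.73 in TG naive, -0.74 in TG crush and -0.49 in wt crush, where replicate 203 alone was apart and the other 5 libraries lay between 42.1 and 44.7 RPM of Asns. TG crush replicate 223 was both the highest of its group in Atf5 (71.7 RPM) and the lowest in Asns (25.6 RPM), and without it r over the other 27 libraries was -0.70. With the 5 Slc17a7-rich libraries removed, 23 gave an r of -0.70.

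Atf4 varied with 3 of the other genes. Its r was 0.65 with Eif2ak4 (rho 0.58, permutation p = 0.00065 and 0.00281, adjusted p = 0.0117 and 0.0288) and 0.58 with Ddit3 (rho 0.56, permutation p = 0.00261 and 0.00401, adjusted p = 0.0235 and 0.0289). With Chac1 its r was 0.62 (rho 0.57, permutation p = 0.00115 and 0.0032, adjusted p = 0.0138 and 0.0288). Eif2ak4 and Chac1 had an r of 0.54 (rho 0.56, permutation p = 0.00462 and 0.00303, adjusted p = 0.0333 and 0.0288). Without the 2 libraries farthest from the median these r were 0.57, 0.51, 0.45 and 0.44. Without the libraries high in Slc17a7 they were 0.49, 0.65, 0.55 and 0.37 over 23 libraries. In wt crush alone Atf4 had an r of 0.15 with Eif2ak4 and 0.05 with Chac1, so these pairs did not vary together in every group. The other 31 pairs did not pass, Atf4 with Asns (r -0.05) and Ppp1r15a with Ppp1r15b (r -0.31) among them. Atf4 and its target Asns thus showed no shared variation that this number of libraries could detect. How often pairs of other genes pass this test was not examined. Shared variation particular to the pathway was therefore not shown, for these pairs or for Atf5 with Asns.

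**Figure D3:**
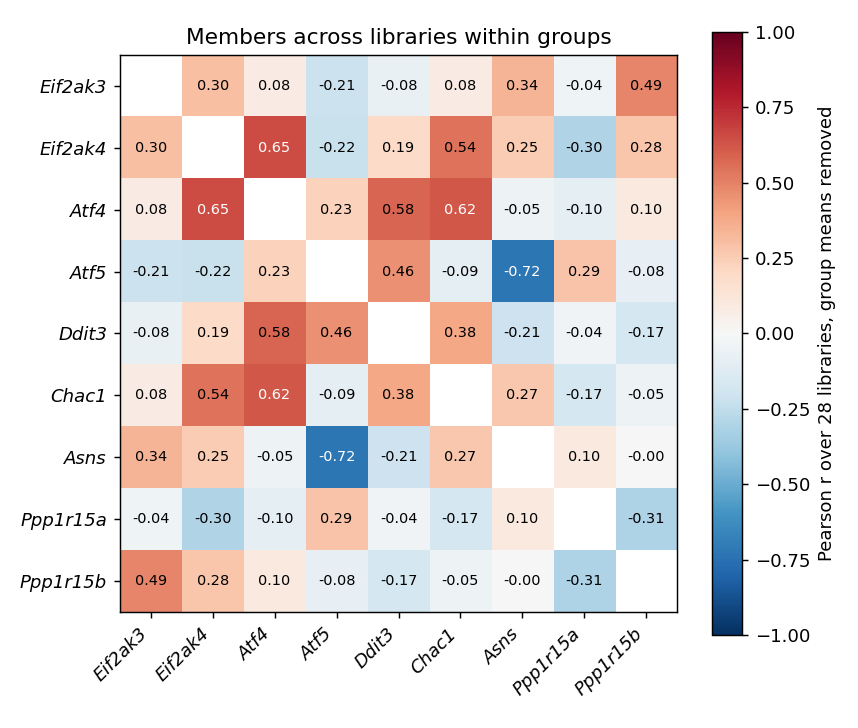
Pearson r between each pair of the 9 genes (rows and columns) over 28 libraries after removing the group means, printed in each cell and coloured from blue (-1) to red (1). Atf5 and Asns stand out as the most negative pair at -0.72, and Atf4 with Eif2ak4, Chac1 and Ddit3 as the most positive at 0.58 to 0.65.

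The same libraries also differed in the level of the spiny neuron markers. Over the 28 libraries, again within groups, Atf4 was lower where the 14 spiny neuron markers were higher (mean of their log2 levels), with an r of -0.72 (permutation p = 0.00013, adjusted p = 0.00117 over 9 genes) and a rho of -0.75 (permutation p = 3e-05, adjusted p = 0.00027). Without the 2 libraries farthest from the median of the marker level, r was -0.82, and without the libraries high in Slc17a7 it was -0.67 (rho -0.69) over 23 libraries. By group, as a description, r was -0.93 in wt naive and -0.96 in TG naive, but -0.30 in wt crush and -0.24 in TG crush. TG crush replicate 223, lowest of its group in the markers, had 99.6 RPM of Atf4, below the group mean, and without it r over the other 27 libraries was -0.86. Eif2ak4 (r -0.49, rho -0.56; permutation p = 0.0191 and 0.00636, adjusted p = 0.0595 and 0.0286) passed by rank only. Ddit3 (r -0.42), Chac1 (r -0.44), Asns (r 0.45) and Ppp1r15a (r 0.48) did not pass after adjustment (adjusted permutation p from 0.0595 to 0.0681 for r). Atf5 (r -0.27), Ppp1r15b (r -0.16) and Eif2ak3 (r 0.10) had adjusted permutation p of 0.313, 0.512 and 0.636. With the marker level as a covariate the averaged change of Atf4 after crush went from -0.12 to -0.06 (adjusted p = 0.313), and its change in wt rats from -0.12 to -0.003 (adjusted p = 0.996).

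**Figure D4:**
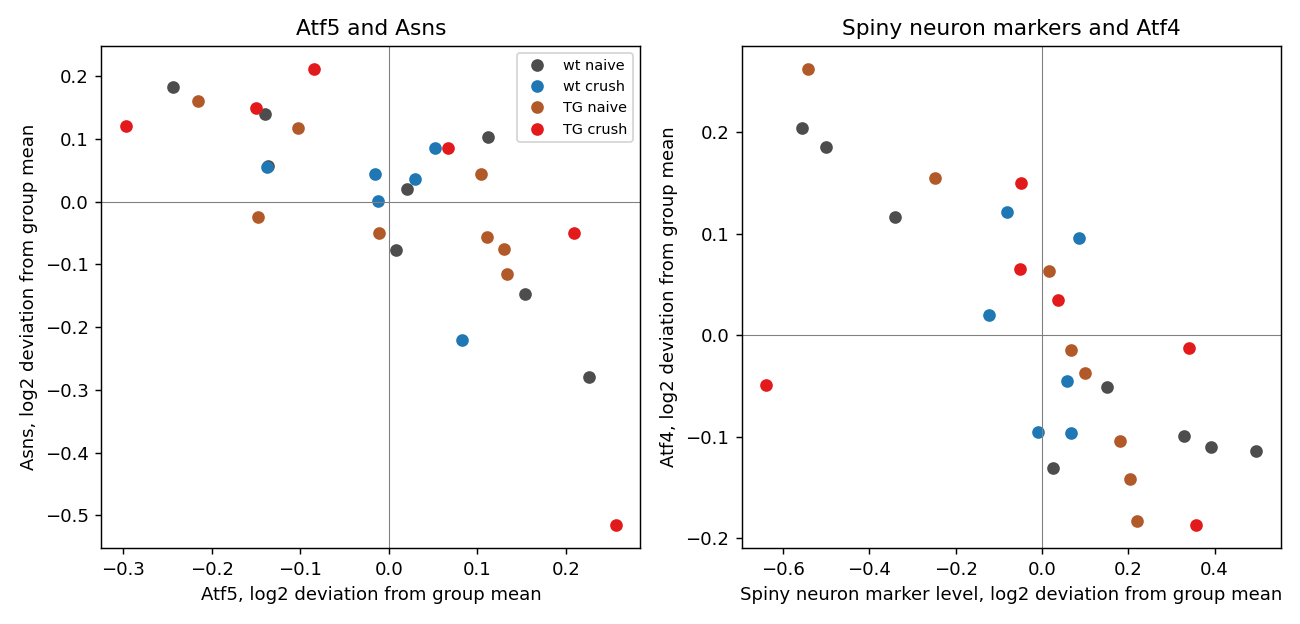
Log2 deviations of each of the 28 libraries from its group mean, coloured by group: Asns against Atf5 (left) and Atf4 against the mean level of the 14 markers of spiny neurons (right). Over all 28 points r is -0.72 in each panel; TG crush replicate 223 is the lowest point of the left panel and, in the right one, the leftmost and below the trend of the others.

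For each of the 3 genes that passed, the genes with the most similar log2 levels were looked up among 11147 genes with a mean of at least 5 RPM, by Pearson r over the 28 libraries with groups included. Atf5 was nearest to Prkcdbp (r 0.91), Nr1h2 (r 0.91) and Bloc1s1 (r 0.91). Ddit3 was nearest to Hsf1 (r 0.82), the main transcription factor of the heat shock response, Bsg (r 0.82) and Ppib (r 0.82), a prolyl isomerase of the endoplasmic reticulum. Ppp1r15b was nearest to Zdhhc20 (r 0.82), NEWGENE_1305281 (r 0.82) and Zfp868 (r 0.81). These are descriptions of libraries that share their groups and tissue composition. None of the named neighbours was another member.

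Around the 10 genes, 86 further genes of the pathway in 6 lists were tested. Between TG and wt rats, 0 of 86 passed limma's test in naive rats, in crush rats or in the average, beside 0.0329%, 0.00549% and 0.0384% of all genes. An unadjusted p under 0.05 was found for 6, 3 and 7 of them, beside 4.98%, 8.06% and 5.09% of all genes. In wt rats after crush 0 of 86 passed (0.159% of all genes), with 13 at an unadjusted p under 0.05 (20.8% of all genes). For the interaction 0 of 86 passed (0.00549% of all genes), with 2 at an unadjusted p under 0.05 (7.49% of all genes). In TG rats after crush 2 of 86 passed (2.33%, beside 3.08% of all genes), and averaged over genotypes 6 of 86 did (6.98%, beside 11.4% of all genes), 3 higher and 3 lower. Whether these shares differ from those of all genes was not tested.

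Of the 16 genes of the other eIF2 kinases and of the factors eIF2 and eIF2B, none passed limma's test in any comparison, and 2 had an unadjusted p under 0.05 after crush on average, beside 28.5% of all genes. Their median log2 change there was -0.02, as was that of all genes. Of 14 bZIP partners and stress regulators, 1 passed after crush and 13 did not, where 1.08% of all genes were higher in TG rats and 3.03% on average. Atf6, the membrane-bound factor of the unfolded protein response, rose in TG rats by 0.17 (SE 0.05, limma adjusted p = 0.0367) and on average by 0.12 (SE 0.03, limma adjusted p = 0.0163). Without the libraries high in Slc17a7 the averaged call held (log2 change 0.14, adjusted p = 0.0418) and the call in TG rats was lost (0.16, adjusted p = 0.134). Its mean went from 70.0 to 79.0 RPM in TG and from 74.2 to 78.2 in wt rats.

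Among 13 genes of amino acid synthesis, 2 fell on average, beside 8.42% of all genes, and 11 did not pass. Cbs, the first enzyme from homocysteine to cysteine, fell by 0.31 (SE 0.05, limma adjusted p = 0.000608), from 80.1 to 66.9 RPM in wt and from 81.0 to 62.5 in TG rats. Phgdh, the first enzyme of serine synthesis, fell by 0.23 (SE 0.06, limma adjusted p = 0.0152), from 109 to 93.7 RPM in wt and from 114 to 96.4 in TG rats. In TG rats alone Cbs fell by 0.37 (SE 0.07, limma adjusted p = 0.00623). Without the libraries high in Slc17a7 the calls of Cbs held (adjusted p = 0.0126 on average and 0.0387 in TG rats), and that of Phgdh was lost (log2 change -0.25, adjusted p = 0.0547). Both genes are also abundant in astrocytes, whose markers Gjb6, Aldoc and Aldh1l1 fell in the same comparison, as given above. The part of astrocytes in this was not tested.

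Of 10 amino acid transporters and 21 genes of cytosolic tRNA synthetases and tRNA export, none passed limma's test in any comparison, with 1 and 2 at an unadjusted p under 0.05 after crush on average, beside 28.5% of all genes. Most of the 21 were slightly lower in TG than in wt rats: 18 in naive rats, 19 in crush rats and 19 on average. For that average 54.9% of all genes were below 0. The median log2 change of the 21 was -0.02, -0.06 and -0.04, and that of all genes -0.01, 0 and -0.01. Whether the 21 differed as a set was not tested. Among 12 other targets of ATF4 and CHOP that could be tested, 3 passed on average after crush, 2 higher and 1 lower, beside 3.03% and 8.42% of all genes. Herpud1, which serves degradation of proteins at the endoplasmic reticulum, rose by 0.22 (SE 0.06, limma adjusted p = 0.0158). Stc2, a secreted glycoprotein, rose by 0.30 (SE 0.08, limma adjusted p = 0.0226), with group means from 0.830 RPM in TG naive to 1.17 RPM in TG crush. Bbc3 (PUMA, which promotes apoptosis) fell by 0.21 (SE 0.07, limma adjusted p = 0.0364). All 3 calls were lost without the libraries high in Slc17a7 (adjusted p = 0.0893 for Herpud1, 0.158 for Stc2 and 0.106 for Bbc3).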

How the data were processed

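Reads of 75 nt from a stranded mRNA library were sequenced by the submitters, per the labels' protocols. STAR 2.6.1a, featureCounts of Subread 1.6.3, DESeq2 1.22.2 and Rnor_6.0 are named in the submitters' processing notes. The deposited table gives RPKM with decimal commas, for which the unit was recorded as other. The length behind them is the gene span with introns, so RPM (RPKM times length in kilobases) was used, and the minimum on RPKM, which removes Eif2ak3 and Eif2ak4, became an alternative. RPM values were whole multiples of 1 read in 100% of cases (tolerance 0.02), and 1 read was worth up to 0.0343 RPM.

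A single linear model of log2(RPM + 0.5) on the 4 groups was fitted to the 28 libraries with limma 3.58.1 in R 4.3.3, letting variance depend on mean level. Correlations used 100000 permutations (scipy 1.17.1, Python 3.11.15), and figures matplotlib 3.10.9. The scripts were first tested on simulated data with 200 changed genes. Of changes of 1.2-fold, 44% were recovered for TG against wt in naive rats and 20% in crush rats. After crush, 42% were recovered in wt and 12% in TG rats, so changes this small were often missed. Of changes of 2-fold, 90% to 100% were recovered. Between 3 and 13 calls per comparison were false. The 10 genes, the lists, the tests and the alternatives were chosen with earlier results of these data known. Named genes were the 10, up to 4 genes of lowest p per list and comparison that passed, and the 3 nearest patterns; Mbd6, Nup62 and Il4i1 were added for their overlap with members. In the pathway lists Ero1l and Ero1a name 1 gene, and Gdf15, Fgf21 and Map1lc3b were below the filter. Alternatives were other pseudocounts, filters and scaling, limma-voom, the compared groups alone, each library left out, and 2 added after seeing the data (without libraries above 20 RPM of Slc17a7, and the spiny neuron level as covariate). The correlations by group and without single libraries were also added after seeing the data.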

Additional observations from a re-analysis of the deposited data

Results flagged for a closer look

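In 4 of the 40 combinations of gene and group tested, 1 library stood apart from the rest of its group by Dixon's criterion, which flags about 1 in 20 groups by chance. TG naive replicate 193 had 21.6 RPM of Eif2ak3, with the other 7 at 23.8 to 25.5. In wt naive replicate 199, one of the libraries high in Slc17a7, Chac1 stood at 10.9 RPM, with the others at 6.01 to 8.05. The lowest library of wt crush was replicate 203 for both Asns (36.1 RPM, others 42.1 to 44.7) and Ppp1r15b (43.0 RPM, others 49.9 to 53.1), and this library had the largest mitochondrial share of its group, 15.9%.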

How the results depend on the processing

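No paired analysis was possible because each library carries a number of its own. In the 3 comparisons of TG with wt, in wt rats after crush and for the interaction, the number of the 10 genes that passed stayed at 0 under every alternative run. In TG rats after crush it went from 2 to 0 with the TG groups alone and 0 without the 5 libraries high in Slc17a7, and ranged from 0 to 2 with 1 library left out. For the average over genotypes it went from 3 to 1 with no filter and 1 without the libraries high in Slc17a7, and ranged from 1 to 5 with 1 library left out, the latter without TG crush replicate 223, where Asns and Eif2ak3 passed too. No called change reversed sign. Counts over all genes moved more. Without the libraries high in Slc17a7 they went from 6 to 2, 1 to 2 and 7 to 2 for TG against wt (naive, crush, average), from 29 to 15 in wt rats, 562 to 181 in TG rats, 2086 to 555 on average and 1 to 0 for the interaction. With the spiny neuron covariate they were 10 in wt rats, 1274 in TG rats and 1167 on average. With the compared groups alone they were 2, 6, 45 and 123 in the naive, crush, wt and TG comparisons. With no filter they were 19 in wt and 371 in TG rats, and with the stricter filter 4 for the average of TG against wt and 50 in wt rats. On the RPKM scale they were 2 in crush rats and 4 for that average, and a pseudocount of 0.1 and limma-voom each gave 2 in crush rats. With 1 library left out, the counts ranged from 12 to 511 in wt rats (without wt naive replicates 197 and 196), 224 to 1218 in TG rats (without TG crush replicates 220 and 223), and 1137 to 3714 on average (without TG crush replicates 222 and 223), and from 2 to 7, 1 to 6 and 1 to 5 for the genotype comparison without injury, that after crush and the interaction. The cause of these shifts was not tested.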
